A study of Mus musculus with 8 samples.

Results

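The Hox genes described here are 37 of the 19938 genes that the Neuro2a arrays read through a transcript cluster (the set of probes that stands for 1 transcript unit) carrying a single gene symbol. A gene was taken when its symbol was Hoxa, Hoxb, Hoxc or Hoxd followed by a number, and each of the 37 had exactly 1 such cluster. They comprise 10 HoxA, 9 HoxB, 9 HoxC and 9 HoxD genes. Hoxb8 was read only by a cluster that it shared with Hoxb7 (5.56 to 5.76 log2 over the 8 arrays, with a log2 ratio of AD over AI cells of 0.01).

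Neuro2a is an established neuroblastoma line from the AJ mouse strain. The anchorage dependent (AD) cells were attached cultures in DMEM with 10% fetal bovine serum, penicillin/streptomycin and L-glutamine, and the anchorage independent (AI) cells were tumorspheres in serum-free NeuroCult neural stem cell medium with supplements, EGF, bFGF and heparin. Both are the same line with no other genotype or treatment, and attachment and medium cannot be told apart in the comparison. Each phenotype had 4 arrays, labelled as independent cultures but described in the methods as replicate hybridizations, so that p-values may measure technical spread only.

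Hox genes encode homeodomain transcription factors that give cells their position along the head-to-tail axis. In mammals they lie in the clusters HoxA, HoxB, HoxC and HoxD, each on its own chromosome, and genes with the same paralog number in different clusters derive from one ancestral gene. Low paralog numbers are expressed from the hindbrain backwards and high numbers only in the trunk and tail. Sympathetic neuroblasts, from which neuroblastoma arises, come from the neural crest of the trunk.

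The cells carried the marks of their lineage. All 11 measured neuroblastoma and sympathoadrenal markers, among them the transcription factor genes Hand2, Phox2a and Gata3, lay above the median signal of every array. Of single-symbol clusters 51.4% did. Of these 11, 4 (Phox2a, Th, Dbh and Mycn) were called higher in AD cells, with an adjusted p under 0.05 and at least 1.5-fold in limma, and none lower, against 3.93% of all clusters called in either direction. At any fold 7 had an adjusted p under 0.05 toward AD cells, against 8.5% of all clusters. Toward AI cells 1 did, Gata2 (log2 ratio -0.23, limma adjusted p = 0.0376), against 9.62% of all clusters. The part of these markers in the Hox results was not tested. Of other cell types, 1 of 4 glial markers (Mbp, 6.09 to 6.30 log2), none of 7 fibroblast markers and neither of 2 blood markers lay above the median of every array. Below every array median lay 3 of the glial, 5 of the fibroblast and both blood markers. The other two fibroblast markers were Pdgfra, above the median in 7 of 8 arrays (5.86 to 6.20 log2), and Col1a1, above it in 1 array. The array medians ran from 5.82 to 5.92 log2 in AD cells and from 5.92 to 5.99 log2 in AI cells. AD replicate 4 received the lowest weight, 0.35, when arrays were weighted by their scatter.

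Few Hox genes gave a signal above the middle of the array, and most of those belonged to one cluster. In 4 of 37 genes (10.8%) the signal exceeded the median of all clusters in each of the 8 arrays, against 51.4% of the 21789 single-symbol clusters and 45.3% of all clusters. The 4 genes were Hoxc10, Hoxc9, Hoxc6 and Hoxb3. A further 32 genes (86.5%) lay below the median in every array, against 43.2% of single-symbol clusters. The remaining gene, Hoxc4, lay above it in 2 AD and 2 AI arrays. Signals of different probe sets do not rank the amounts of different transcripts, so levels were described against the array median. The same limit holds for that median, which other probe sets make up. Differences between neighboring genes, given below, were read only for their shift between the phenotypes. In bulk RNA, fewer cells with a transcript and less transcript per cell cannot be told apart.

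**Figure D1:**
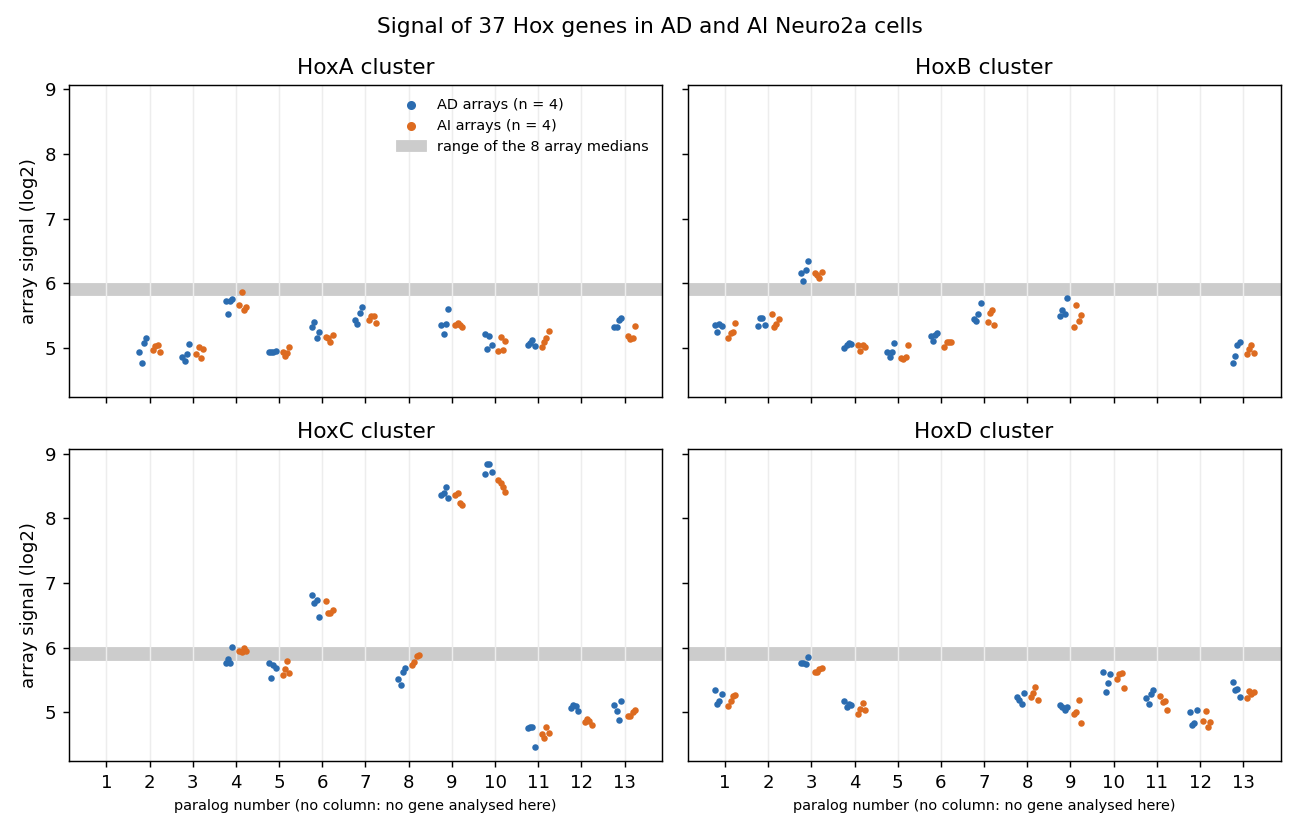
Array signal (log2) of 37 Hox genes by cluster and paralog number, with 1 dot per array (4 AD in blue, 4 AI in orange) and a grey band from 5.82 to 5.99 log2 for the range of the array medians. Hoxc6, Hoxc9, Hoxc10 and Hoxb3 stand above the band in both phenotypes, and no HoxA or HoxD gene does.

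By cluster, 3 of 9 HoxC genes, 1 of 9 HoxB genes, none of 10 HoxA genes and none of 9 HoxD genes were above the median of every array. By paralog number, 1 of 11 anterior genes (numbers 1 to 4), 1 of 10 central genes (5 to 8) and 2 of 16 posterior genes (9 to 13) were. All 4 measured paralogs of number 13, Hoxa13, Hoxb13, Hoxc13 and Hoxd13, lay below every median, at 4.77 to 5.47 log2. So did Hoxa9, Hoxb9 and Hoxd9, the paralogs of Hoxc9, and Hoxa10 and Hoxd10, the paralogs of Hoxc10.

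Hoxc10, a posterior gene known for its part in lumbar motor neurons and hindlimb patterning, was far above the median in both phenotypes. Its signal was 8.69, 8.84, 8.85 and 8.72 log2 in AD replicates 1 to 4 and 8.59, 8.55, 8.49 and 8.41 log2 in AI replicates 1 to 4. Every array thus lay 2.43 to 3.02 log2 above its own median. It was the only member whose signal exceeded the 75th percentile of every array. Hoxc9 fell short of that level only in AI replicate 3 (8.24 against 8.265 log2) and AI replicate 4 (8.21 against 8.268 log2).

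Hoxc9, a thoracic gene that represses limb-level motor neuron programs, stood next to Hoxc10. The signal was 8.37, 8.39, 8.49 and 8.32 log2 in AD cells and 8.36, 8.40, 8.24 and 8.21 log2 in AI cells, which is 2.23 to 2.60 log2 above the array medians. The phenotypes overlapped.

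Hoxc6, a gene of the brachial and upper thoracic region, was above the median by a smaller margin, 0.54 to 0.93 log2. Its AD signals were 6.82, 6.69, 6.74 and 6.48 log2 and its AI signals 6.73, 6.54, 6.53 and 6.59 log2. AD replicate 4 was the lowest of all 8 arrays, and the phenotypes overlapped.

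Hoxb3, a hindbrain-level gene and the one member outside HoxC above every median, cleared it by 0.09 to 0.43 log2. It lay at 6.16, 6.04, 6.21 and 6.34 log2 in AD cells and at 6.16, 6.13, 6.09 and 6.18 log2 in AI cells, with AD replicate 4 the highest. The annotated span of Hoxb3 contains Hoxb4 and Mir10a, and that of Hoxd3 contains Hoxd4 and Mir10b, so that probes of one gene may lie in another. Just outside the limit was Hoxc4, at 5.76, 5.82, 5.76 and 6.01 log2 in AD cells and 5.95, 5.94, 5.99 and 5.95 log2 in AI cells, -0.13 to 0.09 log2 from the array medians.

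The genes above the median were not an unbroken run along HoxC. In the RefSeq annotation the order on chromosome 15 is Hoxc13, Hoxc12, Hotair, Hoxc11, Hoxc10, Mir196a-2, Hoxc9, Hoxc8, Hoxc6, Hoxc5, Mir615 and Hoxc4. Hoxc8 lies between Hoxc9 and Hoxc6, and its signal was below the median of every array, at -0.38 to -0.09 log2 relative to it. Hoxc11, the neighbor of Hoxc10 on the other side, lay at -1.46 to -1.05 log2 relative to it. Hoxc12 and Hoxc13 beyond it were also below every median. At the other end Hoxc5, at 5.53 to 5.79 log2, lay -0.37 to -0.13 log2 from the array medians.

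The level of Hox genes in AD cells was then compared with that in AI cells. None of the 37 genes was called, where 3.93% of all 35556 clusters and 4.17% of single-symbol clusters were called. Among single-symbol clusters not above the median of every array, 1.62% were called. At any fold, 3 of 37 genes (8.11%) had an adjusted p under 0.05, against 18.1% of all clusters and 21.2% of single-symbol clusters. All 3, Hoxc10, Hoxc12 and Hoxc8, are HoxC genes. Higher in AD cells were 2 of them (8.5% of all clusters were) and lower 1 (9.62% of all clusters were). Of the 33 genes not above every median 2 passed (6.06%, against 7.36% of such single-symbol clusters), and both lay below every median, where 3.6% of single-symbol clusters passed. At an unadjusted p under 0.05 there were 5 genes (13.5%, against 30.1% of all clusters), and AD and AI arrays were fully apart in 5 genes (13.5%, against 22.1%). A linear model without moderated variances also called none, and 3 genes passed its adjusted p at any fold. These were Hoxc10, Hoxc12 and Hoxd3, while Hoxc8 did not pass. After median centring 5 genes passed at any fold, all higher in AD cells, and after quantile normalization 5 did, 4 of them higher and 1 lower. Median centring itself shifted the median log2 ratio of all clusters by 0.077 toward AD cells. The shares of all clusters that passed under these alternatives are not given here.

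**Figure D2:**
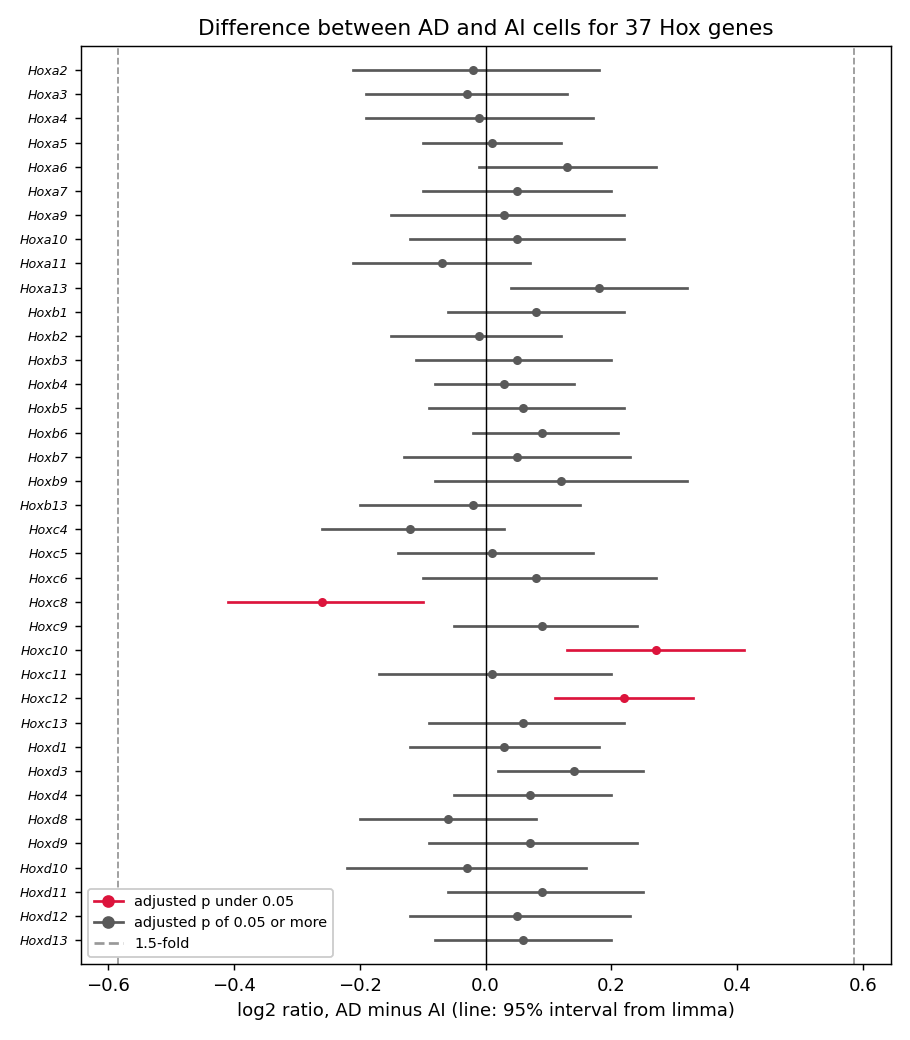
Log2 ratio (AD minus AI) of each of 37 Hox genes with its 95% interval from limma, and dashed lines at 1.5-fold. The intervals run at most from -0.41 to 0.41, inside the dashed lines for all genes, and 3 HoxC genes in red have an adjusted p under 0.05.

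The intervals of the differences were narrow. The 95% intervals of the 37 log2 ratios reached at most from -0.41 to 0.41, short of 1.5-fold (0.58 log2) in either direction, with a median standard error (SE) of 0.07. The ratios themselves ran from -0.26 for Hoxc8 to 0.27 for Hoxc10, with a median of 0.05, and 27 were positive and 10 negative. Over all clusters the median was -0.001, with 49.8% positive, and 54.7% of single-symbol clusters were positive. The background behind dim signals was not measured here, so that ratios of genes below the median are not known exactly.

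The mean signal of Hoxc10 was 8.78 ± 0.08 log2 for AD arrays against 8.51 ± 0.08 for AI arrays (± SD, n = 4 each), a 1.20-fold difference. The lowest AD array, at 8.69 log2, lay above the highest AI array, at 8.59 log2. The log2 ratio was 0.27 (SE 0.06, limma adjusted p = 0.0176). Without AD replicate 3 or AI replicate 3 the adjusted p from limma was 0.0551 and 0.0526, and it ran from 0.0115 to 0.0551 over the alternative settings.

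Hoxc12, a posterior gene of the lower trunk and tail, was at 5.07, 5.11, 5.10 and 5.02 log2 in AD cells and 4.85, 4.90, 4.86 and 4.80 log2 in AI cells. The phenotypes did not overlap, but all 8 values were below the array medians. The log2 ratio was 0.22 (SE 0.05, limma adjusted p = 0.0147), and the adjusted p from limma was between 0.00549 and 0.0477 in the alternative settings that kept this gene.

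Hoxc8, a mid-trunk gene, went the other way, with 5.51, 5.43, 5.63 and 5.68 log2 in AD cells and 5.74, 5.78, 5.87 and 5.89 log2 in AI cells. Each AI array was above each AD array. AI cells were 1.20-fold higher, a log2 ratio of -0.26 (SE 0.07, limma adjusted p = 0.0312). This adjusted p lost the threshold when any of 6 arrays was left out (0.0504 to 0.0884 without AD replicate 1, 2 or 3 or AI replicate 2, 3 or 4), and also after median centring, with a log2 ratio of -0.18 and a limma adjusted p = 0.0643, and without moderated variances (adjusted p = 0.0554).

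Values of neighboring HoxC genes were also set side by side within each array, as a description of genes chosen after their values were seen. There the signal of Hoxc10 minus that of Hoxc9 was 0.32, 0.45, 0.37 and 0.40 log2 in AD cells and 0.23, 0.15, 0.25 and 0.20 log2 in AI cells, a shift of 0.18 log2 between the phenotypes. The shift was 0.35 log2 for Hoxc9 minus Hoxc8 and 0.53 log2 for Hoxc10 minus Hoxc8, of which Hoxc8 lay below every array median. These shifts are given without a test, since Hoxc10 and Hoxc8 have the extreme ratios of the 37 genes. Hoxc9 itself had a log2 ratio of 0.09 (interval -0.05 to 0.24, limma adjusted p = 0.382), Hoxc6 had 0.08 (interval -0.10 to 0.27, limma adjusted p = 0.548) and Hoxb3 had 0.05 (interval -0.11 to 0.20, limma adjusted p = 0.704).

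**Figure D3:**
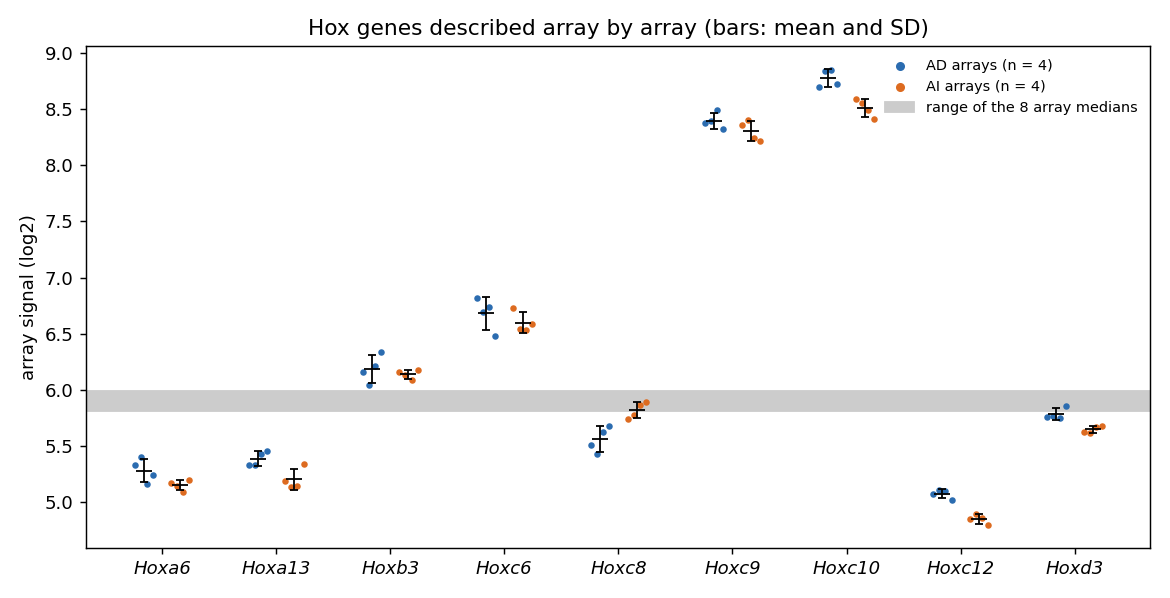
Array signal (log2) of the 4 Hox genes above every array median and of the 6 with the largest ratios, 9 genes in all since Hoxc10 is both. Dots are arrays (4 AD, 4 AI), black bars are mean and SD, and the grey band is the range of array medians; AD and AI dots part without overlap for Hoxc8, Hoxc10, Hoxc12 and Hoxd3.

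The other members with larger ratios were dim. Hoxa13, a gene of the limb tips and hindmost body, was at 5.33, 5.33, 5.43 and 5.46 log2 in AD cells and 5.19, 5.14, 5.15 and 5.34 log2 in AI cells, with AI replicate 4 inside the AD range. Its log2 ratio was 0.18 (limma adjusted p = 0.0831; 0.0205 after median centring and 0.0393 after quantile normalization). Hoxd3, a gene of the neck region, was at 5.76, 5.77, 5.75 and 5.86 log2 in AD cells and 5.63, 5.62, 5.67 and 5.68 log2 in AI cells, without overlap. Its log2 ratio was 0.14 (limma adjusted p = 0.0927). Under the same changes of scaling the limma adjusted p was 0.0223 and 0.0136, and a linear model without moderated variances gave 0.0289. Hoxa6 was at 5.33, 5.40, 5.16 and 5.24 log2 against 5.17, 5.15, 5.09 and 5.20 log2, with overlap and a log2 ratio of 0.13 (limma adjusted p = 0.202). Hoxb6, with a ratio of 0.09, was the fifth gene without overlap (5.11 to 5.23 log2 in AD cells against 5.02 to 5.10 log2 in AI cells).

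By cluster, the median log2 ratio was 0.02 for HoxA, 0.05 for HoxB, 0.06 for HoxC and 0.06 for HoxD. The ranges were -0.07 to 0.18 in HoxA, -0.02 to 0.12 in HoxB, -0.26 to 0.27 in HoxC and -0.06 to 0.14 in HoxD. Over the 32 genes below every median, the mean signal was 5.24, 5.18, 5.24 and 5.29 log2 in AD replicates 1 to 4 and 5.17, 5.22, 5.22 and 5.20 log2 in AI replicates 1 to 4, so that the phenotypes overlapped. Replicate SDs of single members ran from 0.01 to 0.18 log2.

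The RNAs encoded inside the Hox clusters were dim as well. miR-196 and miR-10 precursors lie between Hox genes of corresponding position, and miR-196 is known to target Hox transcripts, Hoxb8 first among them. Of 12 listed cluster RNAs 8 had a cluster of their own, all 8 lay below every array median and none passed the adjusted p at any fold. Among single-symbol clusters below every median 3.6% passed. Mir196a-2, which lies between the 2 genes with the widest margins over the median, was at 5.37, 5.41, 5.21 and 5.40 log2 in AD cells and 5.25, 5.40, 5.36 and 5.42 log2 in AI cells. Its log2 ratio was -0.01 (interval -0.16 to 0.14). Such a cluster cannot be read as the level of the mature miRNA. The mature 5p sequences are shown because the precursors are spread over the Hox clusters while their seeds are shared. Capitals mark the seed, bases 2 to 8, and sequences and positions are those of RefSeq on GRCm38.p6.
mmu-miR-196a-5p (Mir196a-2, between Hoxc10 and Hoxc9, chr15:102973365-102973386, plus strand): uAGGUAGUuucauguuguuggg
mmu-miR-196a-5p (Mir196a-1, beside Hoxb9, chr11:96265187-96265208, plus strand): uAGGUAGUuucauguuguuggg
mmu-miR-196b-5p (Mir196b, between Hoxa9 and Hoxa10, chr6:52230129-52230150, minus strand): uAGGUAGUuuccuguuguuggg
mmu-miR-10a-5p (Mir10a, inside the span of Hoxb3, chr11:96317186-96317208, plus strand): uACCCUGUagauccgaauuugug
mmu-miR-10b-5p (Mir10b, inside the span of Hoxd4, chr2:74726074-74726096, plus strand): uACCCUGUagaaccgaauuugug
The miR-196 precursors share one seed and the miR-10 precursors another. Counted from the 5′ end, miR-196b-5p differs from miR-196a-5p by A12C, and miR-10b-5p from miR-10a-5p by U12A, both outside the seed. The other precursor clusters ran from 4.40 to 5.60 log2, with Mir10b at 4.40 to 4.90 log2 showing the widest range. Its log2 ratio of -0.09 had an interval of -0.38 to 0.20. Mir10a had -0.07, and Hottip, a long RNA at the Hoxa13 end of HoxA, had 0.09 (limma adjusted p = 0.222). For Hottip a linear model without moderated variances gave an adjusted p of 0.0181.

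Hox proteins bind DNA together with TALE homeodomain cofactors of the Pbx, Meis and Pknox families. Most of those measured were bright. Of 9 listed cofactor genes 8 were measured, and 7 of these lay above every array median, against 51.4% of single-symbol clusters. Meis3 did so by only 0.42 to 0.93 log2, and Pknox2 lay below every median. None was called, against 3.93% of all clusters. At any fold 1 was higher and 1 lower in AD cells (median log2 ratio -0.02), against 18.1% of all clusters in either direction. Pbx3 was at 10.22, 10.17, 10.28 and 10.10 log2 in AD cells and 10.67, 10.64, 10.69 and 10.72 log2 in AI cells, without overlap. AI cells were 1.40-fold higher, with a log2 ratio of -0.48 (SE 0.06, limma adjusted p = 0.00045, and 0.000133 to 0.00736 over the alternative settings). Meis2 went the other way, at 9.95, 10.14, 10.09 and 10.03 log2 in AD cells against 9.88, 9.70, 9.76 and 9.90 log2 in AI cells (log2 ratio 0.24, limma adjusted p = 0.0336). The Meis2 difference lost the threshold in 6 alternative settings, with an adjusted p of up to 0.105 from limma. Pbx4 had a log2 ratio of -0.28 (limma adjusted p = 0.0989, and 0.0217 without AD replicate 4).

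**Figure D4:**
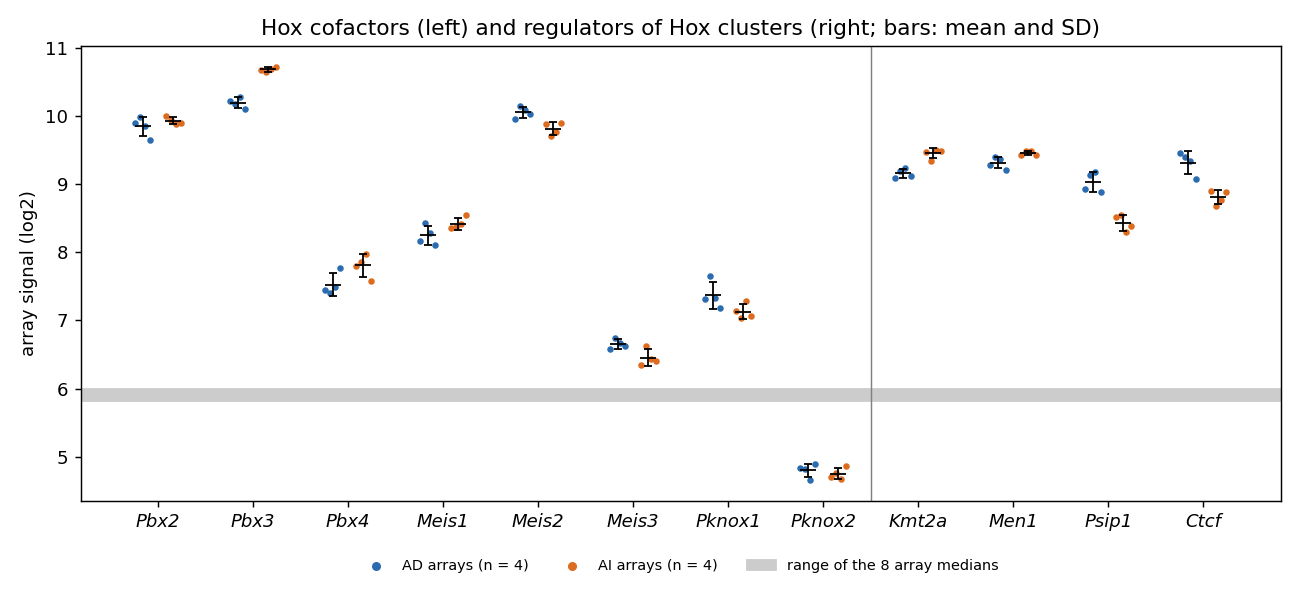
Array signal (log2) of 8 TALE cofactor genes and of 4 regulators of Hox clusters in AD and AI cells. Dots are arrays (4 per phenotype), black bars are mean and SD, and the grey band is the range of array medians. At an adjusted p under 0.05 in limma, Pbx3 and Kmt2a are higher in AI cells, and Meis2, Psip1 and Ctcf in AD cells. Pknox2 alone lies below the band.

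Among genes known to regulate Hox clusters, those of chromatin were bright and those of the Cdx family were not. Of 12 listed genes 11 were measured, and 1 of these was called, against 3.93% of all clusters. At any fold 2 were higher and 1 lower in AD cells, against 18.1% of all clusters in either direction. Kmt2a, the histone methyltransferase that keeps Hox genes active, its partners Men1 and Psip1, the insulator factor gene Ctcf, the acetyltransferase gene Kat6a, the Polycomb gene Bmi1 and Egr2 were above every median, and Cdx1, Cdx2, Cdx4 and Gbx2 were below. Egr2 cleared the median by as little as 0.03 log2. Psip1 was the one gene called, 1.52-fold higher in AD cells (8.93, 9.13, 9.18 and 8.88 log2 against 8.51, 8.54, 8.29 and 8.38 log2; log2 ratio 0.60, SE 0.09, limma adjusted p = 0.00171). It lay at the fold limit, and its log2 ratio was 0.55 to 0.68 over the alternative settings, with an adjusted p below 0.05 in all of them. Ctcf had a log2 ratio of 0.51 (limma adjusted p = 0.00502) and Kmt2a one of -0.29 (limma adjusted p = 0.00896), both without overlap and under 1.5-fold. Psip1, Men1, Kat6a and Egr2 were also without overlap, as were 22.1% of all clusters. For Men1, Kat6a and Egr2 the adjusted p from limma was 0.116, 0.19 and 0.113.

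Genes that flank the Hox clusters were for the most part above the median. Of 18 measured flanking genes, 12 were above every array median and 5 below every one, against 51.4% and 43.2% of single-symbol clusters. Mtx2, beside HoxD, lay 4.27 log2 or more above the median, and Hibadh, beside HoxA, lay at least 4.15 log2 above it. Atp5g1 and Atp5g3 lay higher still, by at least 5.21 log2 each. None of the flanking genes was called, against 3.93% of all clusters, and 1 passed the adjusted p at any fold, against 18.1%. Lnpk, beside HoxD, had a log2 ratio of 0.27 (limma adjusted p = 0.0369, lost in 9 alternative settings with values of up to 0.103), Calcoco1, beside HoxC, had -0.25 (limma adjusted p = 0.136, and 0.00808 without AD replicate 4) and Smug1 had 0.18 (limma adjusted p = 0.125). Evx1 and Evx2, the homeobox genes beside HoxA and HoxD, were dim: Evx2 lay below every median and Evx1 above it in 3 of 8 arrays.

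Homeobox genes of the forebrain, midbrain and gut were for the most part dim too. Of 12 genes, 2 lay above every median, Otx1 at 7.75 to 8.14 log2 and Six3 at 6.28 to 6.57 log2, and 9 lay below every one. Of single-symbol clusters 51.4% lay above every median and 43.2% below. None was called, against 3.93% of all clusters, of which 18.1% passed the adjusted p at any fold. At any fold, Pdx1 and Lhx2 had an adjusted p under 0.05 toward AD cells (log2 ratios 0.21 and 0.19, adjusted p = 0.0357 and 0.0387 from limma), and each lost it in several alternative settings, with adjusted p values of up to 0.105 and 0.107. Hesx1 had 0.20 (limma adjusted p = 0.182).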

How the data were processed

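Total RNA of AD and AI Neuro2a cells was labelled and hybridized by the authors to Affymetrix mouse gene ST arrays, 1 per sample. The deposited table holds log2 signals that the authors made by background correction and normalization; the submitters' processing notes name GCRMA and Partek 6.5. The methods name 3 normalizations, of which the table holds 1. Values were used as deposited. Arrays give no counts, so that the number of arrays limits the precision.

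Transcript clusters were named by the platform annotation. All 37 Hox genes matched RefSeq (GRCm38.p6) by gene number. RefSeq served for names, order and sequences, since the build of the array annotation is not given in the sources used here. Clusters with several symbols (1621) or none (12146) were tested but not named. The comparison of AD with AI cells ran over all 35556 clusters in limma 3.58.1 (R 4.3.3) by lmFit and eBayes without covariates, adjusted by Benjamini-Hochberg. A call needed both 1.5-fold and an adjusted p below 0.05. On simulated arrays of this size (35556 clusters, 200 changed), 94% of clusters changed 1.75-fold, 98% of those changed 2-fold and all changed 4-fold or 8-fold were recovered, with 3 unchanged clusters called. The changes were added in full to clusters drawn at random, so these rates need not hold for dim Hox genes. Exact two-sided permutation tests of single Hox genes (Python 3.11.15, scipy 1.17.1), which with 4 against 4 arrays cannot give a p below 0.0286, are not quoted.

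The members, the 5 lists of related genes and the 4 marker lists were chosen with earlier results of these data known. Values of every array were given for members called, above every array median, or among the 6 largest ratios. They were also given for Hoxc4 and Mir196a-2, picked after their values were seen, and for Pbx3, Meis2 and Psip1. Hoxb6, also picked after its values were seen, was given by its ranges. In each list of related genes, the called and the 3 largest ratios were named. The measured regulators of Hox clusters were all named. Meis3, Pknox2, Mtx2, Hibadh, Atp5g1, Atp5g3, Evx1, Evx2, Otx1 and Six3 were named for their signal level. Alternatives were quantile normalization, median centring, leaving out the dimmest 40% of clusters, array weights, a linear model without moderation, robust moderation with a trend, a block for the replicate number, thresholds of 2-fold and 0.01, averaging the clusters of 1 gene, other reference levels and leaving out each array in turn.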

Additional observations from a re-analysis of the deposited data

How the results depend on the processing

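No Hox gene was called under any alternative tried. The count past the adjusted p at any fold was 3 of 37 as reported (8.11%, against 18.1% of all clusters). It was 5 after quantile normalization and 5 after median centring, and ranged from 1 to 4 with 1 array removed. It was 1 without AD replicate 3 or AI replicate 3. The shares of all clusters that passed under these alternatives are not given here, so these counts are not read as a result about Hox genes. Median centring shifted the median log2 ratio of all clusters by 0.077. At the 75th percentile of each array in place of the median, 1 Hox gene instead of 4 was above the reference level, and at the median of single-symbol clusters 3 were, without Hoxb3; the count of 4 stayed at 4 with any 1 array removed. Of the related genes in the 5 lists (8, 11, 18, 12 and 8 measured) 1 was called, against 3.93% of all clusters. The count was 0 after quantile normalization, 0 at 2-fold and from 0 to 2 with 1 array removed. It was 0 without AD replicate 2, AD replicate 3, AI replicate 3 or AI replicate 4, and 2 without AD replicate 4. Over all 35556 clusters 1396 were called, 1325 after quantile normalization, 254 at 2-fold and from 1217 to 1636 with 1 array removed. The log2 ratio of Hoxb3 was -0.0029 without AD replicate 4 (-0.0029 to 0.1 over the arrays removed), and that of Mir10a was 0.0098 after median centring; the cause was not tested.

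Same-numbered AD and AI arrays showed no shared deviation (correlations of -0.112, 0.078, 0.005 and -0.175). Arrays of different numbers ran from -0.178 to 0.254. Such correlations cannot show whether same-numbered cultures were handled together, so that a pairing is not known. With the replicate number as a block, 3 Hox genes passed the adjusted p at any fold, as without it, and 0 were called.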
